A study of Mus musculus with 9 samples.

Results

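Ventricular RNA libraries of mice at postnatal day 7 fell into 2 sets by the level of a single gene, Rps3a3, and the low set was compared with the high set across all genes. Rps3a3 is annotated as a processed pseudogene, an intronless copy of Rps3a1, which encodes a protein of the small cytosolic ribosomal subunit. The members were chosen by the measured count of Rps3a3 scaled to each library's total (CPM), with the libraries divided at 10 CPM. It placed 5 libraries in the low set (control replicates 1 and 2, cKO replicates 1, 2 and 3) and 4 in the high set (control replicates 3, 4 and 5, cKO replicate 4), so that all 9 libraries of the series were used. The highest library of the low set lay at 0.507 CPM of Rps3a3 and the lowest of the high set at 103 CPM.

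The control group held 5 Arid1a f/f littermates, which carry the floxed alleles without Cre. The cKO group held 4 aMHC-Cre;Arid1a f/f animals, in which Cre is driven by a promoter active in cardiomyocytes, so other cell types of the ventricle keep the gene. All 9 libraries thus share the floxed Arid1a alleles and the age. The labels give no other treatment and name no library batch.

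Because the libraries were divided by a measured level, the low against high comparison is a description. Genes were sorted by an adjusted p under 0.05 and a fold over 1.5, with genotype as the other term, and a gene past both is named called below. Of 15318 genes tested, 287 (1.87%) were called: 239 (1.56%) were higher in the low set and 48 (0.313%) were higher in the high set. An adjusted p under 0.05 alone was reached by 4.81% of genes, 3% higher in the low and 1.81% higher in the high set. All libraries of the low set lay above all of the high set for 4.46% of genes, and below them for 3.56%. Library totals were between 31011055 and 40073801 counts, mitochondrially encoded genes took 10.03% to 13.9% of the counts, and between 19418 and 20317 genes had a count. Each set held both sexes: Xist, the RNA of the inactive X chromosome, was abundant in 2 libraries of each (control replicate 2 and cKO replicate 3 in the low set, control replicate 3 and cKO replicate 4 in the high set). In the deposited table the 5 low libraries filled the first 5 columns and the 4 high libraries the last 4, and the sources used here do not say what the column order stands for. The correlation across genes between GC content and a library's deviation from the gene mean overlapped between the sets. It ran from -0.14 to 0.40 in the low set and from -0.32 to 0.00 in the high set. Within the controls the sets did not overlap, while cKO replicate 4 lay within the range of the low cKO libraries. The part of GC content in the results was not tested beyond the fit with GC and length trends removed.

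Processed pseudogenes arise when a messenger RNA is copied back into DNA and inserted elsewhere, and the youngest of them differ from the parent gene at few bases. A short read from such a pair can be placed on either locus, and a base that differs between animals can move reads from one to the other. Ribosomal protein genes have many such copies in the mouse genome. Interferons are secreted signals of antiviral and antimicrobial defence: they bind receptors on the cell surface, JAK kinases phosphorylate STAT factors, and these switch on a large group of interferon-stimulated genes.

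The aligned sequences of Rps3a1 and Rps3a3 are shown because the division of the libraries rests on this pair. Rps3a1 lies on chromosome 3 from 86137940 to 86142702 on the minus strand of GRCm38 and its transcript has 6 exons. Rps3a3 lies on chromosome 13 from 108670603 to 108671397 on the plus strand and is a single exon of 795 bases. The coding part of Rps3a1, also 795 bases long, aligned to it without gaps and with 9 substitutions, an identity of 98.9%. Counted from the first coding base, with the base of Rps3a1 first, they were T216C, T260C, C363T, A427T, T534C, G582T, A660G, C762T and G792A. Several stretches of 240 bases held 4 of them, the most for that length. The stretch shown, with these bases in capitals, ran from coding base 188 to 427. In Rps3a1 it covers chr3:86139176-86141405 on the minus strand across introns that are not shown, and in Rps3a3 it covers chr13:108670790-108671029 on the plus strand.
Rps3a1: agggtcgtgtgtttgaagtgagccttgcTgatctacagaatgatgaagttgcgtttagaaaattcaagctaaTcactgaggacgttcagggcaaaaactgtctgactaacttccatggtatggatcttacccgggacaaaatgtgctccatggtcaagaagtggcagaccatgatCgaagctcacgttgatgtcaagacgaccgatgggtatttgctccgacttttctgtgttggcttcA
Rps3a3: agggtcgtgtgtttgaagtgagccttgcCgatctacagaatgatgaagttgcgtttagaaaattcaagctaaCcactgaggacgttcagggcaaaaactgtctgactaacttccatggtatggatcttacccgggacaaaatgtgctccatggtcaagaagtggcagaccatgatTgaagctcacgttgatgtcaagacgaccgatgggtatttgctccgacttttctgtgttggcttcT
Of the 721 windows of 75 bases in Rps3a3, the read length of the study, 231 (32.0%) also occur in Rps3a1, and 45.4% occur in some other annotated transcript. Reads from such windows cannot be assigned to either gene by sequence.

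Rps3a3 stood at 0.512, 0.521, 0.498, 0.345 and 0.492 CPM in control replicates 1 and 2 and in cKO replicates 1, 2 and 3, which is 13 to 18 counts per library. It stood at 112, 108, 110 and 99.7 CPM in control replicates 3, 4 and 5 and cKO replicate 4, or 3396 to 4120 counts. No library lay between the sets, and the genotypes were mixed within each. Rps3a1 went the other way. Its level was 253, 258, 276, 258 and 264 CPM in the same low libraries and 72.9, 73.8, 75.7 and 70.8 CPM in the high ones. The sets of Rps3a1 did not overlap either, and its mean was 262 ± 8.68 CPM in the low set (SD, n = 5) and 73.3 ± 2.02 CPM in the high set (SD, n = 4). On the log2 scale the difference between the sets, low minus high, was 1.83 (SE 0.05) for Rps3a1. For Rps3a3, which divided the libraries, it was -7.77. Both are given with no test, because Rps3a1 shares windows with Rps3a3 whose reads cannot be assigned.

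The sum of Rps3a1 and Rps3a3 was 262 ± 8.69 CPM in the low set (SD, n = 5) and 181 ± 7.03 CPM in the high set (SD, n = 4). The ranges of the sum did not overlap, and how reads that match both genes were counted is not given in the sources used here. Rps3a2, a further processed pseudogene of the family on chromosome 14 from 88123017 to 88123808, had 14 to 22 counts in each low library and 0 or 1 in each high library. With so few counts in the high set no fold is given for it. Further copies that share windows with Rps3a1, Gm13408 and Gm13935, did not pass the filter on low counts and had at most 8 counts in any library. Of 78 listed ribosomal protein genes tested, Rps3a1 was the one called, where all genes gave 1.87%, 3 were called in the controls alone, and the median difference of the list was 0.05 against 0.00 over all genes tested.

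**Figure D1:**
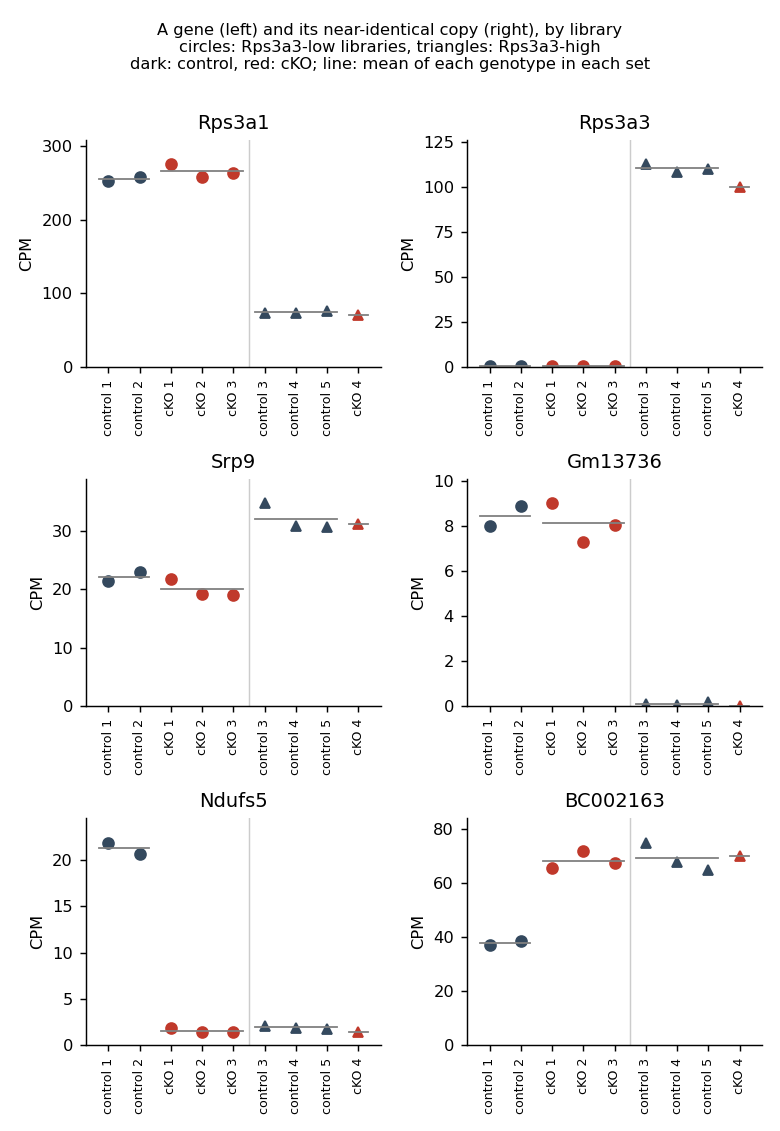
CPM of 3 genes (left) and of a near-identical copy of each (right) in the 9 libraries, with circles for the Rps3a3-low and triangles for the Rps3a3-high libraries, dark for control and red for cKO, and a line at the mean of each genotype in each set. Rps3a1 is high where Rps3a3 is near 0, Gm13736 is near 0 where Srp9 is high, and Ndufs5 is high in control replicates 1 and 2 alone, where BC002163 is lowest.

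A second pair, picked after its values were seen, showed a mirrored pattern. Srp9 encodes a subunit of the signal recognition particle, which guides ribosomes to the endoplasmic reticulum, and Gm13736 is a processed pseudogene of 253 bases on chromosome 2 from 87526145 to 87526397. All 179 windows of Gm13736 (100%) also occur in Srp9. Gm13736 had 265, 307, 289, 274 and 278 counts in control replicates 1 and 2 and in cKO replicates 1, 2 and 3. It had 3, 1, 5 and 0 counts in control replicates 3, 4 and 5 and cKO replicate 4. Srp9 lay at 18.97 to 22.9 CPM in the low set and at 30.7 to 34.7 CPM in the high set, again without overlap, and its difference was -0.58 (SE 0.08, edgeR adjusted p = 0.00295), just inside the fold limit and therefore not called. Here the sum of gene and copy was 29.1 ± 2.27 CPM in the low set (SD, n = 5) and 31.9 ± 1.94 CPM in the high set (SD, n = 4), and these ranges overlapped.

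Pseudogenes and sequence shared with other genes were found among the called genes in both directions. Processed and other pseudogenes made up 3.26% of all genes tested, 7.53% of those higher in the low set (18 genes) and 16.7% of those higher in the high set (8 genes). These counts include the dividing gene Rps3a3, and genes such as Rps3a2, Gm13736 and Rpl34-ps2 that are near 0 in one set and passed the filter through the other, so they are a description. Genes that share at least 10% of their windows with another gene were 6.31% of all tested with a sequence, 12.97% of those higher in the low set and 14.6% of those higher in the high set. Of 97 tested genes that share a window with a ribosomal protein gene, 11 were called higher in the low set and 2, the dividing gene Rps3a3 and Rpl34-ps2, higher in the high set, where all genes gave 1.56% and 0.313%. The 11 fell to 2 without control replicate 2 or without cKO replicate 4, and to 5 with GC and length trends removed. Genes pairing with a copy at 10% or more of the shorter gene's windows, and called in opposite directions, were Rps3a3 with Rps3a1 and Rps3a3 with Rps3a2. Both rest on Rps3a3, whose direction the division of the libraries fixed, and Rps3a2 passed the filter through the low set, so the pairs are a description. Called genes also differed in base composition. The median GC content was 52.5% in those higher in the low set and 45.4% in those higher in the high set, against 49.7% over all genes tested, and the median transcript lengths were 2281, 3858 and 3257 bases.

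Genes of the interferon response were higher in the low set. Of the 26 listed interferon response genes tested, 23 were called higher in the low libraries and 0 in the high ones, where 1.56% of all genes were called higher in the low set. The low and high libraries did not overlap for 24 of the 26, while 8.02% of all genes tested did not overlap in either direction. The list's median difference was 2.38 on the log2 scale, against 0.00 over all genes, and it was 2.27 within the controls and 2.16 within the cKO libraries. Since earlier results of these data were known when the list was written, its direction is a description. Some members, such as Zbp1 and Ifit3b, passed the filter on low counts through the low set where they are high, so the count is not read as support, and 23 of the 26 could be tested in the controls alone.

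The ligand genes looked up, Ifng, Ifnb1, Ifna2 and Ifna4, were nearly absent from the counts. Ifng, which encodes interferon gamma, had 17 counts in all 9 libraries together and at most 0.121 CPM in any of them. Ifnb1, which encodes interferon beta, had 0 counts in every library, as did the interferon alpha genes Ifna2 and Ifna4. These genes did not pass the filter on low counts and were not tested. Receptors and kinases, named after their values were seen, were present in every library at similar levels. The interferon gamma receptor gene Ifngr1 lay at 51.3 to 55.1 CPM in the low set and 48.0 to 55.0 CPM in the high set. Ifnar1, for a chain of the type I interferon receptor, lay at 73.0 to 79.7 and 74.3 to 92.99 CPM, and the kinase gene Jak1 at 133 to 181 and 157 to 185 CPM. None of Ifngr1, Ifngr2, Ifnar1, Ifnar2, Jak1, Jak2 and Tyk2 was called, and their differences ran from -0.16 for Ifnar1 to 0.15 for Tyk2. Ifnar2, at 24.5 to 28.6 and 23.2 to 24.5 CPM, was the one of the 7 whose sets did not overlap.

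Transcription factors of the pathway were called higher in the low set in several cases. Irf1, a factor induced by interferon gamma, stood at 39.4, 116, 51.7, 45.8 and 72.5 CPM in control replicates 1 and 2 and in cKO replicates 1, 2 and 3. In control replicates 3, 4 and 5 and cKO replicate 4 it stood at 18.8, 17.8, 17.2 and 20.4 CPM. The high libraries thus lay close together, while the low libraries spread over a wide range with control replicate 2 at the top. The difference of Irf1 was 1.86 (SE 0.35, edgeR adjusted p = 0.0365). Stat2 and Irf9, which act in the response to type I interferon, differed by 1.52 (SE 0.29) and 1.56 (SE 0.20). With GC and length trends removed, the calls of Irf1 (adjusted p = 0.0603 by edgeR) and Stat2 (0.0617) were lost at differences of 1.77 and 1.49. In the controls alone neither was called, at differences of 1.91 and 1.54. Irf7, a driver of the type I interferon response, lay at 11.9 to 39.9 CPM in the low set and 2.88 to 3.77 CPM in the high set.

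Some other interferon-related genes, picked among the largest called differences, differed by more. Whether they are targets of these factors here was not tested. Nlrc5, the transactivator of MHC class I genes, stood at 10.9, 84.9, 29.9, 14.7 and 46.7 CPM in the low libraries, in the order given for Irf1. In the high libraries it stood at 1.52, 0.472, 0.323 and 0.702 CPM. Even the lowest of the low libraries was well above the highest of the high ones, and the difference was 5.76 (SE 0.96, edgeR adjusted p = 0.0295). Iigp1, an immunity-related GTPase that acts on the vacuoles of intracellular pathogens, reached 809 CPM in control replicate 2 and was 87.1 to 260 CPM in the other low libraries and 5.50 to 20.1 CPM in the high ones. Its difference was 4.89 (SE 0.82, edgeR adjusted p = 0.0317). The related GTPase genes Tgtp1 and Tgtp2 had 76 to 659 and 110 to 1018 counts in the low libraries, and 0 to 10 and 4 to 19 in the high ones. Of their windows, 74.6% in Tgtp1 and 81.4% in Tgtp2 also occur in another gene, so their separate values are uncertain.

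Other genes with a large difference were Gbp4 (4.20, SE 0.82), Gbp2b (3.59, SE 0.64), Irgm2 (3.66, SE 0.74) and Ifit1 (3.47, SE 0.66). With GC and length trends removed Gbp4 and Irgm2 lost their calls (edgeR adjusted p = 0.0511 and 0.0591) at differences of 4.26 and 3.70. Gbp genes encode guanylate-binding proteins, and Ifit1 encodes a protein that binds foreign RNA. Gbp4 lay at 36.7 to 265 CPM in the low set and 3.83 to 15.04 CPM in the high set. Ifit1 lay at 5.48 to 23.9 CPM and 0.629 to 1.94 CPM. Zbp1, a sensor of Z-form nucleic acid, had 43 to 282 counts in the low libraries and 1 to 11 in the high ones, and Ifit3b had 37 to 229 and 4 to 10. Of the chemokine genes, Cxcl10 had 30 to 304 counts in the low libraries and 7 to 15 in the high ones, and Cxcl9 lay at 3.34 to 38.9 CPM and 0.873 to 1.55 CPM (4.21, SE 0.91, edgeR adjusted p = 0.0558, not called).

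**Figure D2:**
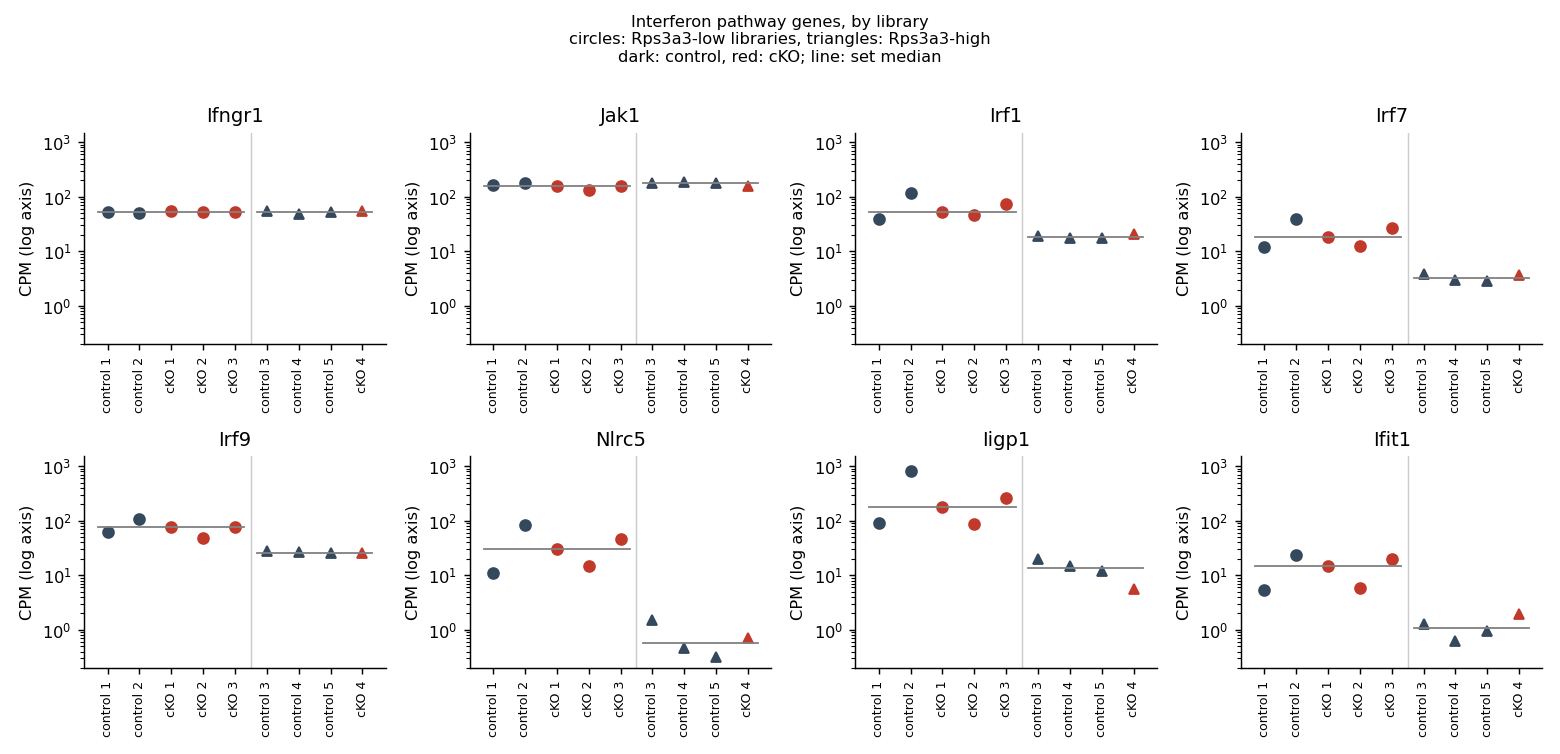
CPM on a log axis, the same in each panel, of 8 interferon pathway genes in the 9 libraries, with a line at the median of each set. The receptor gene Ifngr1 and the kinase gene Jak1 lie at like levels in all libraries, and Irf1, Irf7, Irf9, Nlrc5, Iigp1 and Ifit1 are higher in each circle (low set) than in any triangle (high set).

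Antigen presentation genes were grouped after their values had been seen. Of 33 tested, 15 were called higher in the low set, as were 1.56% of all genes, and 0 in the high set, and their median difference was 0.97. Without control replicate 2 the count was 5, without cKO replicate 4 it was 3, and with GC and length trends removed it was 8, at medians of 0.77, 0.80 and 0.85. In the controls alone 4 of 29 tested were called, with a median of 0.80, where all genes gave 2.27% in both directions. Tap1, for a subunit of the transporter that loads peptides onto MHC class I, lay at 33.1 to 116 CPM in the low set and 7.68 to 10.2 CPM in the high set (SE of the difference 0.41). Psmb9, a subunit of the immunoproteasome, lay at 9.72 to 32.5 CPM and 2.23 to 3.93 CPM (2.95, SE 0.42). The MHC class II gene H2-Ab1 lay at 1.71 to 5.47 CPM and 0.975 to 1.25 CPM (1.54, SE 0.33), and Ciita, the transactivator of class II genes, had 11 to 103 counts in the low libraries and 4 to 7 in the high ones. Among 17 tested interferon-inducible GTPase genes, also grouped afterwards, 13 were called higher in the low set, as were 1.56% of all genes, and the median difference was 3.41. Members such as Tgtp1 and Tgtp2 passed the filter through the low set, so the count and median are a description. In the controls alone 13 of the 17 could be tested and 0 were called, with a median of 3.07. Without control replicate 2 none of 16 was called, with a median of 2.37, and without cKO replicate 4 the count was 1. Adar, an RNA-editing enzyme with an interferon-inducible form, was called at 0.64 (SE 0.10).

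Low libraries did not carry the response to the same extent. As a score of the interferon list, each gene's log2 CPM was centred on its average across libraries and the median was taken over the list. It was 1.86 in control replicate 2, 1.37 in cKO replicate 3, 1.19 in cKO replicate 1, 0.26 in cKO replicate 2 and 0.23 in control replicate 1. In the high libraries it ran from -1.36 to -1.11. Both libraries at the top, control replicate 2 and cKO replicate 3, were the Xist-high libraries of the low set, and the Xist-high libraries of the high set, control replicate 3 and cKO replicate 4, had scores of -1.11 and -1.20. With log2 Xist level as a further term, 24 of the 26 listed genes were called. Without control replicate 2, the count of listed genes called fell to 15 of 26, with a median difference of 1.95. Without cKO replicate 4 it was 2 of 26, with a median of 2.48. In the controls alone, 7 of 23 tested were called and the median was 2.46.

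Promoter stretches of called interferon genes are shown because the genes moved together. In the RefSeq promoter table (GRCm38.p6), the 250 bases before the start were searched on both strands for the GAS motif bound by STAT dimers, TTCNNNGAA, and for a core of the interferon-stimulated response element (ISRE), GAAA followed by any 2 bases and GAAA. The GAS letters occur in 8.13% and the ISRE letters in 3.46% of the 27025 genes with a sequence there. Since 157 of the 239 genes called higher in the low set (65.7%) had a promoter in the table, too few for a share, none is given for them. Of the 26 tested genes of the interferon list 18 had one, and 12 of these 18 held a match to either motif, as did 11.1% of all genes with a sequence. At this coverage the count is not read as a share of the whole list. The stretches printed were picked because they hold a match. The lines below give 40 bases of the gene's strand with the match in capitals, which on the opposite strand reads as the reverse complement.
Irf1, GAS, chr11:53769909-53769948, plus strand: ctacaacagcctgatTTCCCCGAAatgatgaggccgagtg
Tgtp2, GAS, chr11:49064269-49064308, minus strand: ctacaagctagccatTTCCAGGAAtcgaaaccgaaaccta
Tgtp2, ISRE, chr11:49064258-49064297, minus strand: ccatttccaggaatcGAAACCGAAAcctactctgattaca
Irgm2, ISRE, chr11:58214898-58214937, plus strand: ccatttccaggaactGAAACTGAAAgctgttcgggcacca
Ifit1, ISRE, chr19:34640789-34640828, plus strand: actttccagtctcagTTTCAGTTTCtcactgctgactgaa
Isg15, ISRE, chr4:156200860-156200899, minus strand: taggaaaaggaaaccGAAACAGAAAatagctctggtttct
The matches begin 90 bases before the start in Irf1, 85 in Ifit1 and 66 in Isg15. In Tgtp2 the GAS and ISRE letters lie side by side, beginning 81 and 70 bases before the start. A match is a run of letters and was not tested as a site of binding.

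Macrophage genes were also higher in the low libraries. Of 10 listed markers tested, 5 were called higher in the low set and 0 in the high set, against 1.56% of all genes called higher in the low set, and the summed level of the list was 190 to 268 CPM in the low set and 123 to 162 CPM in the high set. The complement genes C1qa, C1qb and C1qc, which tissue macrophages express, were called at 0.90 (SE 0.11), 1.01 (SE 0.10) and 1.06 (SE 0.13). C1qb stood at 24.1 to 28.7 CPM in the low libraries and 10.7 to 14.5 CPM in the high ones, so the sets did not overlap. Adgre1, which encodes the surface protein F4/80, and Lyz2, which encodes lysozyme, were called at 0.76 (SE 0.12) and 0.68 (SE 0.13). Other defining markers of the list were not called: Csf1r, the receptor for colony-stimulating factor, lay at 30.3 to 41.6 CPM and 24.5 to 32.5 CPM, Mrc1 at 25.7 to 36.3 and 24.9 to 29.8 CPM, and Cd163 at 1.42 to 2.30 and 1.55 to 3.18 CPM. In whole ventricles, fewer cells of a type and less RNA per cell cannot be told apart. Without cKO replicate 4, 3 of the 10 markers were called. The part of macrophages in the interferon result was not tested.

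Markers of other cell types were called in few cases, beside 1.56% of all genes called higher in the low set. Among 6 tested lymphocyte markers Ighm was called, and among 10 endothelial markers Ly6c1, both higher in the low set. Among 7 tested erythroid markers Hbb-bt was called higher in the low set. It shares 56.6% of the shorter gene's windows with Hbb-bs, which was not called (0.34), so its separate value is uncertain. Hba-a1 was not called but did not overlap, at 159 to 305 CPM in the low set and 67.4 to 111 CPM in the high set. Hba-a2 lay at 0.232 to 107 and 25.6 to 79.6 CPM. Of the 6 tested skeletal muscle markers Ckm was called, a gene that cardiomyocytes also express, while Myod1 and Myf6 had 0 counts in all 9 libraries. The calls of Ighm and Ly6c1 were lost without control replicate 2 and without cKO replicate 4. Of 8 tested epicardial and mesothelial markers none was called by edgeR and 2 were called higher in the high set by DESeq2, with a list median of -1.58 (-2.24 within the controls and -0.59 within the cKO libraries). The mesothelial markers Upk3b and Msln lay at 0.261 to 5.88 and 0.579 to 7.09 CPM in the low set and at 2.42 to 23.0 and 4.18 to 22.9 CPM in the high set, while Wt1, an epicardial transcription factor gene, lay at 15.2 to 24.0 and 15.2 to 23.4 CPM. The part of these cells in the other results was not tested. None of the 10 fibroblast, 8 mural cell, 7 neutrophil, 8 atrial, 7 Schwann cell, 2 adipocyte, 1 thymic and 4 cartilage markers tested was called. The lung markers summed to at most 0.485 CPM in any library, and none passed the filter. Thymic markers summed to 14.4 CPM in control replicate 3, where Rag1 reached 6.23 CPM and Cd8a 4.43 CPM, and to 0.818 to 1.65 CPM in the other high libraries and 0.782 to 1.51 CPM in the low set.

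**Figure D3:**
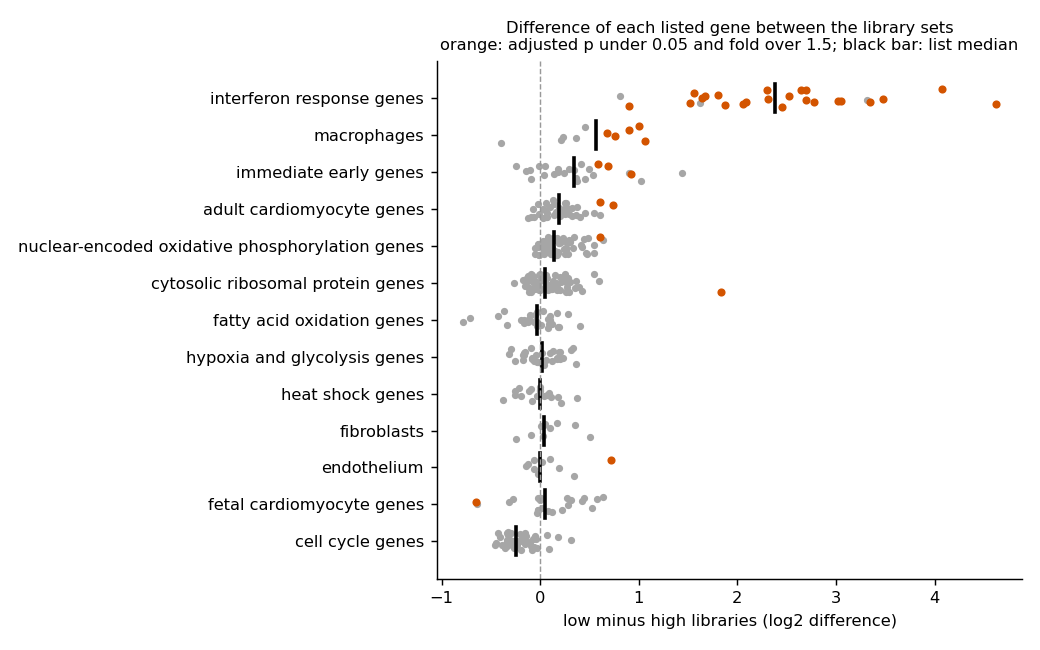
Difference between the sets (low minus high, log2) of each tested gene in 13 lists, with orange points for called genes, grey points for the others and a black bar at the list median. Interferon response genes lie to the right with a median of 2.38, macrophage markers are at 0.57, and cell cycle genes have a median of -0.24 with no gene called.

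Some immediate early genes, which cells transcribe within minutes of a stimulus, were higher in the low set. Of 25 tested, 3 were called higher in the low set, as were 1.56% of all genes, and 0 in the high set, and 20 had a positive difference, as did 49.6% of all genes tested. Jund, a subunit of the transcription factor AP-1, stood at 52.4, 48.3, 44.1, 68.4 and 40.8 CPM in control replicates 1 and 2 and in cKO replicates 1, 2 and 3, and at 27.6 to 33.0 CPM in the high libraries (0.69, SE 0.15). Ier2 did not overlap between the sets (0.59, SE 0.13), while Nr4a3, an orphan nuclear receptor gene, did (0.92, SE 0.23). The list median was 0.34, and 0.22 with GC and length trends removed, a fit in which none of the 25 was called. Without control replicate 2 none was called either, with a median of 0.33.

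Of 38 adult cardiomyocyte genes, Ckm and Cox6a2 were called higher in the low set, where all genes gave 1.56%, and the list median was 0.19. None of the 38 was called without control replicate 2 or with GC and length trends removed. Ckm, the muscle creatine kinase gene, lay at 819 to 1497 CPM in the low set and 647 to 887 CPM in the high set, and the ranges overlapped. Cox6a2, the muscle form of a cytochrome c oxidase subunit, differed by 0.61 (SE 0.14) and was also the one called among 71 nuclear-encoded oxidative phosphorylation genes. Of these 71 genes, 63 had a positive difference, as did 49.6% of all genes, with a median of 0.14. With GC and length trends removed the median was 0.08 and none was called. In the controls alone 7 of the 71 were called, all higher in the low set, where all genes gave 2.27% in both directions. Xirp2, an actin-binding protein of the intercalated disc, was the one called among 22 fetal cardiomyocyte genes and was higher in the high set, as were 0.313% of all genes (-0.65, SE 0.11). It reached 338 CPM in cKO replicate 4 and 124 to 170 CPM in the high controls, which overlapped with the low libraries. Its call was lost without control replicate 2, without cKO replicate 4, in the controls alone and with GC and length trends removed.

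Of 46 cell cycle genes none was called, and the list median was -0.24, with 42 negative differences, where 49.6% of all genes had a positive one. An adjusted p under 0.05 was reached by 6 of them at folds under 1.5, all higher in the high set, as by 1.81% of all genes. Mki67, a proliferation marker, had a mean of 158 CPM in the low set and 182 CPM in the high set (-0.33, SE 0.11, edgeR adjusted p = 0.0907). Scores of this list overlapped between the sets, from -0.39 to 0.34 in the low set and from -0.19 to 0.48 in the high set. The list median was -0.15 within the controls, -0.40 within the cKO libraries, and -0.15 without cKO replicate 4. No gene was called among 29 fatty acid oxidation, 32 hypoxia and glycolysis, 19 heat shock, 18 circadian clock, 19 integrated stress response, 17 nuclear long non-coding RNA, 11 histone and 9 mitochondrially encoded genes tested, and their medians ran from -0.03 to 0.13.

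Genes higher in the high set were fewer. Among those averaging 5 CPM or more with no overlap, and leaving aside genes with a provisional Gm, Rik or clone symbol, the largest differences after Rps3a3 were those of Bche, Rps15a-ps8, Inpp5f, Acsl3, Fgfr2, Trim59 and Rab30, from -0.998 to -0.69. Gm10167, a processed pseudogene, was left aside by its symbol and differed by more (-2.03, SE 0.22), at 1.91 to 3.10 CPM in the low set and 6.93 to 14.3 CPM in the high set. Bche, which encodes butyrylcholinesterase, stood at 37.4, 43.1, 40.4, 33.9 and 35.5 CPM in the low libraries and at 86.0, 105, 92.9 and 55.8 CPM in the high ones. The cKO library of the high set was the lowest of its 4 but remained above every low library. Acsl3, which activates long-chain fatty acids, lay at 24.3 to 28.0 CPM and 40.1 to 48.3 CPM (-0.74, SE 0.08, edgeR adjusted p = 0.00114). Inpp5f, a phosphoinositide phosphatase gene, lay at 10.6 to 12.6 CPM and 18.3 to 21.9 CPM (-0.81, SE 0.09). The receptor gene Fgfr2 (-0.73, SE 0.16) and the Golgi GTPase gene Rab30 (-0.69, SE 0.14) lay under 10 CPM in every library. With GC and length trends removed Rab30 differed by -0.54, inside the fold limit, and lost its call.

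Genes near the family members on the chromosome were listed after their values had been seen. Within 5 Mb of Rps3a3, 43 other genes were tested and 2 (4.65%) were called, both higher in the high set, where all genes gave 1.87% in both directions and 0.313% in that direction. They were Elovl7, a fatty acid elongase gene, and Depdc1b, which lie less than 1 Mb from Rps3a3. With GC and length trends removed Elovl7 lost its call (-1.48, edgeR adjusted p = 0.0572) and Depdc1b kept it. Elovl7 was 0.692 and 1.19 CPM in the low controls and 4.91 to 5.62 CPM in the high controls, and 13.8 to 14.2 CPM in the low cKO libraries and 21.4 CPM in cKO replicate 4, so within each genotype the sets did not overlap. Within 5 Mb of Rps3a1, 134 other genes were tested and 3 (2.24%) were called, 2 of them (1.49%) higher in the high set, against the same shares of all genes: Cd1d2 and Rbm46 were higher in the high set and Adar in the low set. Cd1d2, a lipid-presenting molecule annotated as a polymorphic pseudogene, had 3 to 16 counts in the low libraries and 54 to 77 in the high ones.

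The difference between the sets could be read in each genotype on separate libraries. In the controls alone, 320 of 14126 genes tested (2.27%) were called, 255 higher in replicates 1 and 2 and 65 higher in replicates 3, 4 and 5. Of these 320, 284 (88.8%) had the same sign in the cKO libraries, where replicates 1, 2 and 3 were set against replicate 4, and over all 14126 genes 66.6% did. The 9 libraries were divided by Rps3a3 in both genotypes, the cKO side rests on 1 high library, and genes are not independent replicates, so no test is given. Across these genes Pearson's r between the differences in the 2 genotypes was 0.54.

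**Figure D4:**
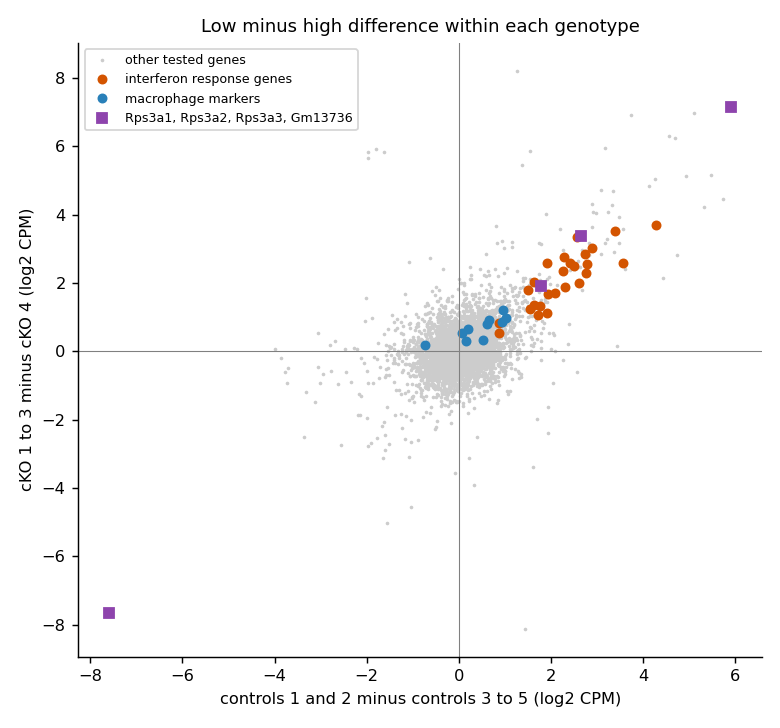
Difference between the sets in log2 CPM within the controls (x axis) and within the cKO libraries (y axis), 1 point per tested gene. Interferon response genes (orange) and macrophage markers (blue) lie mostly at the upper right, and Rps3a3 is the square at the lower left, with differences of -7.58 and -7.65.

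Genotype was not used to divide the libraries, and its difference was tested with the library set as a term. Arid1a itself encodes the chromatin remodeller subunit that is deleted from cKO cardiomyocytes. It stood at 142, 128, 133, 147 and 148 CPM in the 5 controls, in replicate order. The 4 cKO libraries, in the same order, gave 108, 113, 100.3 and 104 CPM. Every cKO library lay below every control. The cKO minus control difference was -0.38 (SE 0.06, edgeR adjusted p = 0.00142), and in a two-sided exact permutation test of genotype within the sets p = 0.025, the smallest that the 40 splits allow. Between the sets the difference of Arid1a, low minus high, was -0.03 (SE 0.06, edgeR adjusted p = 0.788). Counts over the whole gene do not show whether the floxed part was removed.

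With the set as a term 1166 genes (7.61%) were called between cKO and control, and with genotype alone 1030 (6.72%) were, of which 966 were shared. Thus 200 genes were called with the set term and not without it, 116 higher and 84 lower in cKO, and 64 genes lost their call. The largest rises among the 200 included Tnc, the matrix protein tenascin C (1.06, SE 0.17), Col24a1, a fibrillar collagen gene (0.92, SE 0.12), Rbp7, a retinol-binding protein gene (1.23, SE 0.31), C530008M17Rik (1.16, SE 0.34) and Atp6v0e2, a subunit gene of the vacuolar proton pump (0.95, SE 0.19). Atp6v0e2 lay at 15.1 and 16.7 CPM in the low controls and 20.25 to 23.9 CPM in the low cKO libraries, and at 4.07 to 5.01 CPM in the high controls and 13.9 CPM in cKO replicate 4. It was thus higher in cKO within each set, while the high cKO library lay below the low controls. Its edgeR adjusted p for genotype was 0.00593 with the set as a term and 0.162 without.

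The largest falls among the 200 were those of Ndufs5 (-2.66, SE 0.60), Lrtm1 (-1.74, SE 0.33), Clec3b (-1.53, SE 0.29), Arhgef19 (-1.07, SE 0.26) and Lrrc4b (-0.89, SE 0.23). Clec3b encodes the plasminogen-binding protein tetranectin and stood at 30.7 and 32.6 CPM in the low controls, 10.4 to 18.8 CPM in the low cKO libraries, 18.8 to 21.6 CPM in the high controls and 3.68 CPM in cKO replicate 4. Of the genes called between the sets, 33 (11.5%) were also called for genotype, which is 2.83% of the 1166.

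**Figure D5:**
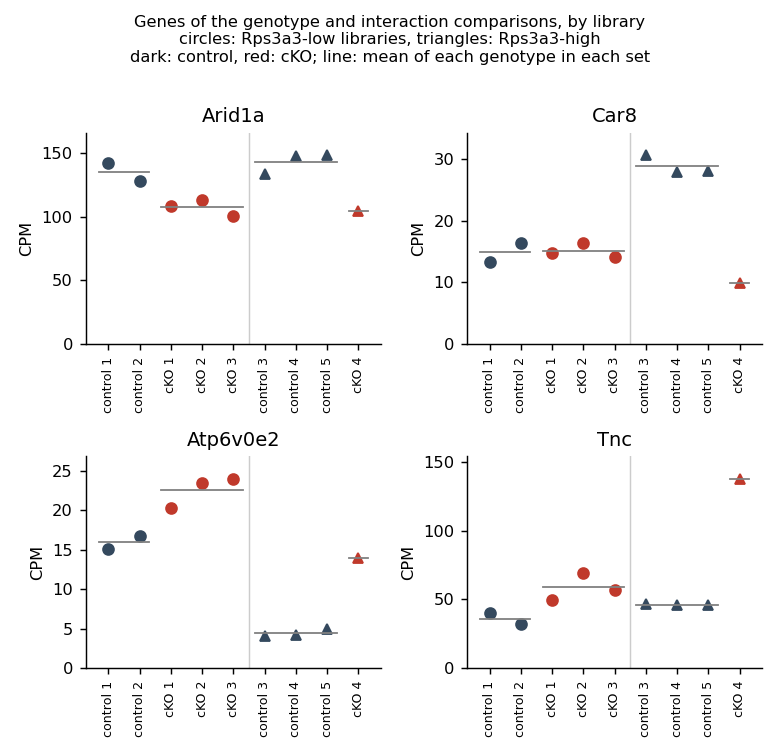
CPM of Arid1a, Car8, Atp6v0e2 and Tnc in the 9 libraries, with a line at the mean of each genotype in each set. Arid1a is lower in the 4 cKO libraries than in the 5 controls, Car8 is highest in control replicates 3, 4 and 5, and Atp6v0e2 is higher in cKO than in control within each set.

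Whether the genotype difference itself differed between the sets was asked with a product term. It was called for 2 of 15318 genes (0.0131%), Ndufs5 and Car8, and 620 genes (4.05%) had an unadjusted p under 0.05. DESeq2 called 31, and edgeR without cKO replicate 2 called 63. Ndufs5, which encodes a subunit of respiratory complex I, stood at 21.9 and 20.7 CPM in control replicates 1 and 2 and at 1.38 to 2.08 CPM in the other 7 libraries (product term -3.30, SE 0.29, edgeR adjusted p = 0.00282). BC002163, a processed pseudogene on chromosome 16 from 42955631 to 42955949 that shares 146 of its 245 windows (59.6%) with Ndufs5, was looked up after these values were seen. It lay at 37.1 and 38.5 CPM in control replicates 1 and 2 and at 64.8 to 74.9 CPM in the other libraries, the mirror image of Ndufs5. The sum of the pair was 59.0 and 59.1 CPM in those controls and 66.6 to 77.0 CPM elsewhere. Reads of this pair may have been split, so the genotype value of Ndufs5 given above is uncertain.

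Car8, which encodes a carbonic anhydrase-related protein without enzyme activity, stood at 30.6, 27.8 and 28.0 CPM in control replicates 3, 4 and 5, at 9.83 CPM in cKO replicate 4, at 13.4 and 16.3 CPM in the low controls and at 14.2 to 16.3 CPM in the low cKO libraries. It shares no window with another gene. The cKO minus control difference was 0.03 in the low set and -1.54 in the high set, and the product term was 1.58 (SE 0.20, edgeR adjusted p = 0.0497). This call was lost with RLE scaling, where the term was 1.57, and without any of control replicates 1, 3, 4 and 5 or cKO replicate 1, where it ran from 1.44 to 1.60. Ndufs5 and Car8 both lie on chromosome 4, as does Arid1a, but Car8 is far from the others. They start at 123712710 (Ndufs5), 8143362 (Car8) and 133679008 (Arid1a), and the part of position was not tested. The high set has 1 cKO library, so this term takes its spread from the other libraries.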

How the data were processed

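RNA of P7 mouse ventricles was sequenced as poly(A)-selected, stranded, single-end libraries of 75 bases. The raw counts per gene were deposited by the authors as 1 table, and the submitters' processing notes name mm10, STAR 2.4.2a and HTSeq 0.6.1. The gene annotation and the strand setting are not given in the sources used here, so reads of overlapping, antisense and near-identical genes cannot always be told apart. The table held 0 other sample columns. The 9 libraries were assigned by their own labels. Nothing says whether replicates came from separate litters, and p-values measure the spread between these samples.

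Symbols, coordinates (1-based) and transcripts came from GENCODE M21 on GRCm38, in which 36429 of 38293 identifiers, with 99.8% of the counts, were found. Libraries were divided at 10 CPM of Rps3a3. In R 4.3.3, edgeR 4.0.16 (filterByExpr with a minimum count of 10, TMM, robust quasi-likelihood F test, two-sided, Benjamini-Hochberg over 15318 genes) fitted genotype and library set. CPM are scaled by TMM unless a library total is named. Within-genotype differences and scores use log2 CPM with a prior count of 2. Calls needed a fold over 1.5 and an adjusted p under 0.05, the thresholds of the study's methods, where DESeq2 was the test. The members, gene lists and tests were chosen with earlier results of these data known. Named genes are the Rps3a family, the 8 largest called differences in each direction without overlap at a mean of 5 CPM or more and with a symbol that is no Gm, Rik or clone name, up to 3 called genes of each list, pairs called in opposite directions, genes called for the product term, Arid1a and the 5 largest genotype differences in each direction gained with the set term. Other genes were named after their values were seen. Sharing was counted in windows of 75 bases over annotated transcripts. Alternatives were DESeq2 1.42.0, RLE scaling, scaling without the 10 most abundant genes, other filters, library set or genotype alone, replicate number as a block, Xist as a covariate, controls alone, each library left out, GC and length trends removed, genes without shared windows and a fold of 2. The fit was tested on simulated data.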

Additional observations from a re-analysis of the deposited data

Results flagged for a closer look

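Within the low or the high set, 12 of 132 sets of values examined had a library far from the rest of its set by Dixon's criterion, where chance gives about 1 in 20. Of these 12, 8 are the one cKO library of the high set, mostly at genes named for a genotype difference, so the count is not read against chance. In the high set cKO replicate 4, its one cKO library, stood apart for Car8 (9.83 CPM, gap over range 0.915), Lrtm1 (24.4 CPM, 0.871), Clec3b (3.68 CPM, 0.918), Tnc (138 CPM, 0.988), Atp6v0e2 (13.9 CPM, 0.837), Col24a1 (9.97 CPM, 0.863), Elovl7 (21.4 CPM, 0.912) and Rps3a2 (0 CPM, 0.86, a difference of 1 count). Control replicate 3 stood apart for Srp9 (34.7 CPM, 0.881) and Psmb9 (3.93 CPM, 0.88), and control replicate 4 for Rps15a-ps8 (12.6 CPM, 0.832). In the low set cKO replicate 2 lay lowest for Rps3a3 (0.345 CPM, 0.849), the gene that divided the libraries, with 13 counts against 16 to 18 in the others.

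The genotype difference differed between the library sets, by the product term, for Ndufs5 (-3.30 on the log2 scale) and Car8 (1.58).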

How the results depend on the processing

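Between the library sets, 287 genes were called. The count was 438 with DESeq2, 177 with library set alone, 186 with GC and length trends removed and 151 at a fold of 2. Leaving out 1 library gave 99 (without control replicate 2) to 362 genes (without cKO replicate 1), and 135 without control replicate 4, 135 without control replicate 5 and 107 without cKO replicate 4. Calls higher in the low set were 83.3% of all, and 72.0% without cKO replicate 4. For genotype with the set as a term, 1166 genes were called, and leaving out 1 library gave 812 to 1319. The product term was called for 2 genes, for 1 with RLE scaling (Car8 lost its call) and 31 with DESeq2, and for 1 to 63 (without cKO replicate 2) with 1 library left out. It could not be fitted without cKO replicate 4, the one cKO library of the high set. RLE scaling, scaling without the 10 most abundant genes, other filters, the Xist covariate, controls alone and genes without shared windows kept the set count within 1.5 times, but of the 320 genes called in the controls alone 144 were among the 287. No called value changed sign under any of these alternatives. Over the named genes and all alternatives together, 318 values lost their call and 13 gained one. The cause of these changes was not tested.

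The replicate numbers shared by controls and cKO were also used as a block. Same-numbered libraries had correlations of their deviations of 0.01 to 0.04 for replicates 1, 2 and 3. For replicate 4, where both libraries are in the high set, it was 0.23. Whether they share more than a number is not given in the sources used here. With the replicate block the count was 2 between the sets (50% higher in the low set), 582 for genotype and 42 for the product term. Replicate 3 is the only number with a library in each set, so the set term of this fit rests on that pair. The count between the sets therefore cannot show how far the set difference holds.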
